A study of Aedes albopictus with 6 samples.

Results

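A stretch of 50.5 kb on the scaffold NW_021838798.1 of the Asian tiger mosquito, Aedes albopictus, from base 74514157 to base 74564610, gave rise to 315 of the 22773 small RNA tags listed in the deposited table. A tag is 1 small RNA of fixed position and length, and the members of the cluster were all listed tags that lay wholly between these bases. The cluster lay apart from the other listed tags of its scaffold, 88.1 kb from the next listed tag below it and 748 kb from the next above it, and held 22.7% of the 1388 listed tags there. Among 485 nuclear regions of at least 5 tags with gaps of at most 10 kb, it ranked 6 by number of tags. The libraries were made from whole bodies of 2-day-old males (3 libraries) and 2-day-old virgin females (3 libraries), untreated as far as the labels say. The study asked how piRNA levels differ between the sexes. The table gives 1 value per sex, so no value has a replicate check, no test between the sexes was possible, and nothing here separates a difference between mosquitoes from one between libraries. In bulk samples of this kind, fewer cells of a type and less RNA per cell cannot be told apart, and gonads were not separated from the rest of the body.

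PIWI-interacting RNAs (piRNAs) are small RNAs that guide PIWI proteins to matching transcripts, best known for silencing transposons in animal germ lines. Many of them come from piRNA clusters, stretches of genome whose long transcripts are cut into many piRNAs of differing position. In Aedes mosquitoes, piRNAs are also made outside the gonads, and some derive from viral sequences. The 5′ end of a piRNA is set by cleavage, and its 3′ end by cleavage or trimming. No sequence, strand, gene or repeat annotation of the cluster was used here, so its tags are described by position, length and level.

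The table lists only tags at least 2-fold apart between the sexes, and every statement below is about that list. Levels are in TPM, the count divided by the total of its sex (2060047 for males, 2677063 for females) and scaled to a common sum, with no length term. Ratios are male over female. Brackets give exact 95% intervals, which cover counting error only, and for shares of tags take tags as independent, although many overlap.

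Summed over the cluster, males led moderately. The 315 tags had 4006 counts in males and 3451 in females, a summed level of 1945 TPM in males against 1289 TPM in females. The ratio was 1.51 (1.44 to 1.58). The whole list had a ratio of 1.08 (1.07 to 1.08). The cluster thus held 1.80% of the listed male counts and 1.28% of the listed female counts. The size of the ratio depended on the scaling, since it was 1.11 with TMM factors and 0.67 with RLE factors. RLE factors lowered every ratio alike, by 1.17 on the log2 scale, so that moderate male leads in the results below turned to female leads. They rest on the median ratio of listed tags counted in both sexes, none within 2-fold and most (3358 of 6223) male-higher. That median had to lie at 2-fold or beyond, so these turns were fixed by the list and cannot show the direction.

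By number of tags, neither sex led. Of the 315 tags, 157 were higher in males and 158 in females, a male-higher share of 49.8% (44.2 to 55.5), against 31.7% of all listed tags. Males led more often among well counted tags. With at least 20 counts over both sexes, 55 of 86 tags were higher in males, 64.0% (52.9 to 74.0), against 52.5% over the list. Among tags counted in both sexes at a mean TPM of at least 10, 29 of 30 were higher in males, 96.7% (82.8 to 99.9), against 67.7% over the list. The 20 tags with most counts were all higher in males, and the first female-higher tag came at rank 22. The differences between these shares and those of the list were not tested.

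**Figure D1:**
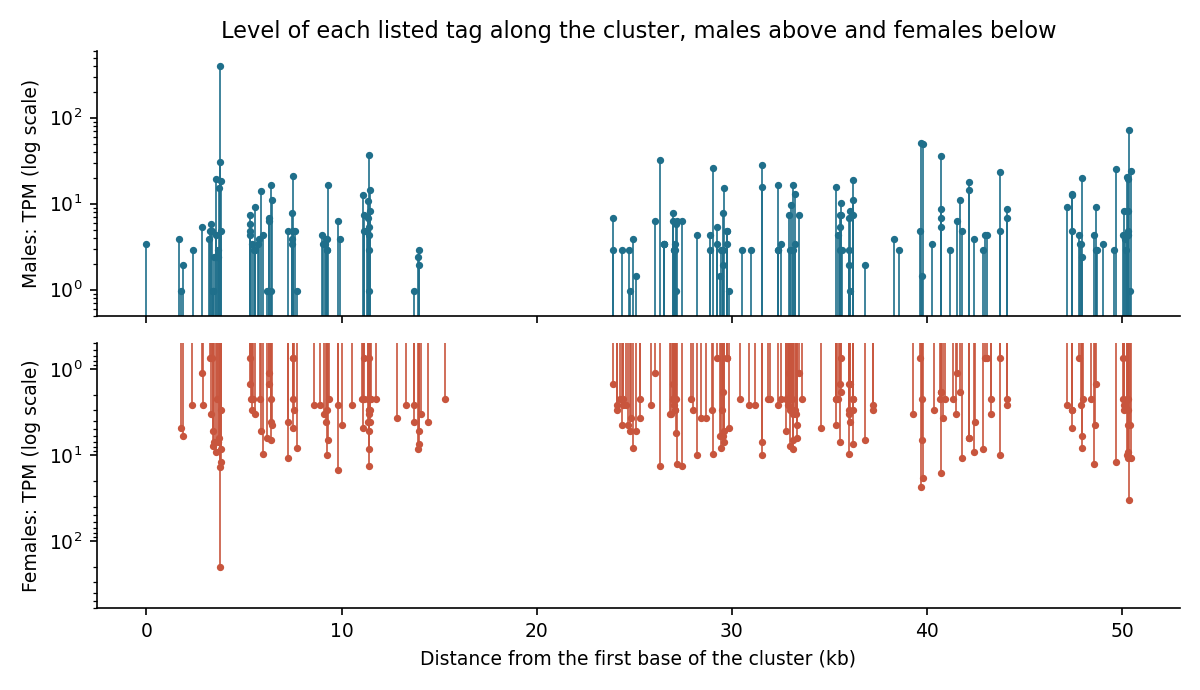
Level of each tag in males (above the middle line) and in females (below it, axis turned down), in TPM on log axes, against its distance in kb from the first base of the cluster; tags listed at 0 in a sex are left out for that sex. A single tag at 3.77 kb stands far above the others in both sexes, and no listed tag lies between the bases 74529485 and 74538050.

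A single 24-nt tag carried much of the cluster. The tag t00003368, at 74517922 to 74517945, had 829 counts (774 to 887) in males and 534 (490 to 581) in females, or 402 TPM in males against 199 TPM in females. Its ratio was 2.02 (1.81 to 2.25), at the 2-fold edge of the list, and 0.89 with RLE factors. It alone held 20.7% of the male counts and 15.5% of the female counts of the cluster. Without it the ratio of the remaining sums was 1.42 (1.35 to 1.49). A 30-nt tag that ended on the same base had 63 counts in males and 37 in females, and its ratio of 2.21 was close to that of the shorter form.

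The next most abundant tags lay along the rest of the cluster and were also male-led, with ratios between 2 and 3. The 26-nt tag t00016667, at 74564523 to 74564548, reached 72.8 TPM in males against 33.6 TPM in females, and its ratio was 2.17 (1.66 to 2.84). The 24-nt tag at 74553841 to 74553864 reached 51.0 TPM in males against 23.5 TPM in females, with the same ratio of 2.17 (1.57 to 3.01). A 25-nt tag close by, starting at 74553968, reached 50.0 TPM in males against 18.3 TPM in females, for a ratio of 2.73 (1.93 to 3.92). The 27-nt tag starting at 74554874 was at 35.4 TPM in males against 16.1 TPM in females, and the 24-nt tag starting at 74525558 at 36.4 TPM in males against 13.4 TPM in females. With the totals used here, the counting interval of each of these 5 lay above 1. It did so for all 157 male-higher tags of the cluster, so it sets none of the 5 apart. With RLE factors the tags at 74564523, 74553841 and 74554874 turned to ratios of 0.96, 0.96 and 0.98, and those at 74553968 and 74525558 stayed male-led at 1.21 and 1.20.

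The abundant male-higher tags kept close to the edge of the list. Over the 29 at or above a mean of 10 TPM, the fold ran from 2.02 to 4.30, with a median of 2.31, against a median of 2.95 for the 1029 such tags of the list. The largest of these folds belonged to the 26-nt tag starting at 74521665, with 43 counts in males against 13 in females and a ratio of 4.30 (2.27 to 8.71). It was followed by the 26-nt tags starting at 74549499, with a ratio of 3.47 (1.74 to 7.39), and at 74562113, with 3.33 (1.83 to 6.36). The 29-nt tag starting at 74556287 had a ratio of 2.83 (1.55 to 5.36), and the 28-nt tag starting at 74545685 one of 2.79 (1.74 to 4.58). The single female-higher tag at this level was t00057473, a 28-nt tag at 74523956 to 74523983. It was at 6.31 TPM in males against 14.9 TPM in females, or 2.37-fold (1.24 to 4.82) higher in females.

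**Figure D2:**
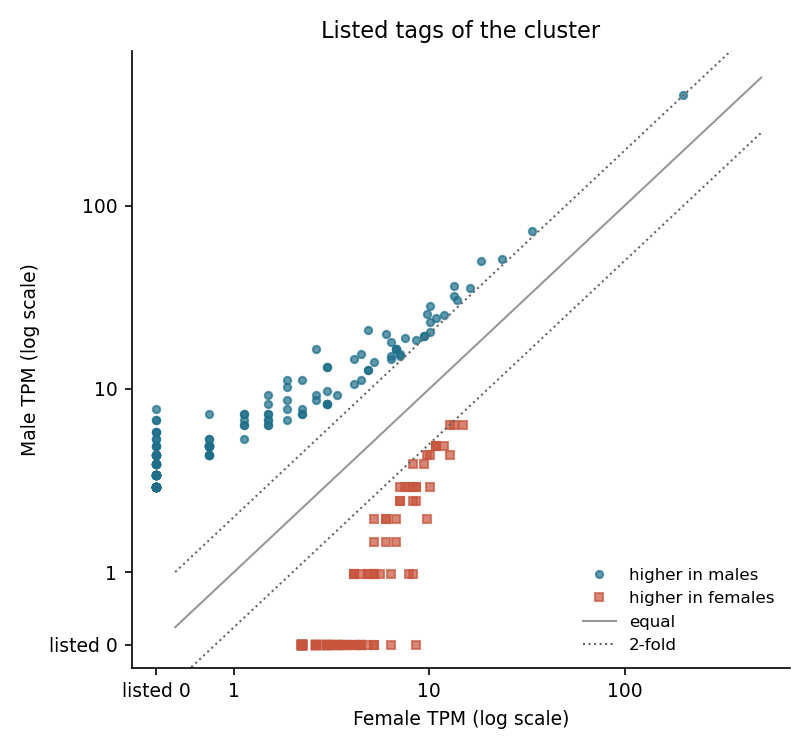
Male TPM (vertical) against female TPM (horizontal) of the 315 tags on log axes, with tags listed at 0 drawn on the edges; the solid line marks equal levels and the dotted lines the 2-fold edge of the list. The most abundant tags all lie just above the upper 2-fold line, and the female-higher tags stay below a TPM of 15 in females.

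Most tags were sparse, and most of them were listed in 1 sex only. Of the 315 tags, 72 were listed in males alone and 114 in females alone. This is 22.9% and 36.2% of the cluster, against 17.0% and 55.7% of the whole list. The highest of those listed in males alone, a 27-nt tag starting at 74521634, had 16 counts (9.15 to 26.0). It was followed by 14 counts each for a 24-nt tag starting at 74525498 and a 31-nt tag starting at 74558256. In females alone the highest was a 29-nt tag starting at 74525542 with 23 counts (14.6 to 34.5). It was followed by a 24-nt tag at 74547472 with 17 counts and a 27-nt tag at 74546941 with 14. The median was 7 counts in both sets. No count of 1 occurs in the table, so a listed 0 can stand for 0 or 1, and no fold is given against it.

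The 129 tags counted in both sexes comprised 85 that were higher in males and 44 in females. Over the list, 3358 of 6223 such tags were higher in males and 2865 in females. The median fold of the 129 was 3.53 for the male-higher and 3.08 for the female-higher tags, against 4.26 and 3.85 over the list. For 6 of the 85 male-higher and 1 of the 44 female-higher tags, the counting interval lay wholly beyond 2-fold. The matching number over the list is not given, so neither number can be read as particular to the cluster.

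Along the cluster, males led at both ends (not with RLE factors, where no window had a ratio over 1). Females led in a stretch below a central gap and in the 5 kb window that held the first tags above it. Cut into 5 kb windows from its first base, the cluster gave 11 windows, the last of 454 bases. The ratio of sums was over 1 in 9, and the interval lay above 1 in 7 and below 1 in a single window. The lead of males in the sums was of similar size in the windows from 35 kb to the upper end, where the 4 ratios ran from 1.64 to 1.88. Here the window from 35 to 40 kb reached 230 TPM in males against 128 TPM in females. The window from 45 to 50 kb reached 124 TPM in males against 66.1 TPM in females and had the highest of the ratios, at 1.88 (1.55 to 2.29), with 14 of 21 tags higher in males. The last 454 bases, from 74564157 on, held 18 tags and 369 counts in males against 267 in females, a ratio of 1.80 (1.53 to 2.11).

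At the lower end the lead was smaller once the most abundant tag was left out. The window from 0 to 5 kb had a ratio of 1.78 (1.63 to 1.96), and one of 1.34 (1.13 to 1.59) without the 24-nt tag at 74517922, which made up 74.2% of its male and 65.6% of its female counts. From 5 to 10 kb, 30 of 53 tags were higher in males and the ratio was 1.49 (1.29 to 1.71). The windows from 10 to 15 kb and from 25 to 30 kb were not separated from equal sums, with 1.10 (0.93 to 1.30) and 1.15 (1.0 to 1.32). That from 30 to 35 kb had a ratio of 1.23 (1.05 to 1.46), and one of 1.08 (0.90 to 1.29) without its most abundant tag, the 28-nt tag at 74545685. In that window 14 of 36 tags were higher in males, 38.9% (23.1 to 56.5), an interval that held both an even split and the 31.7% of the list.

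**Figure D3:**
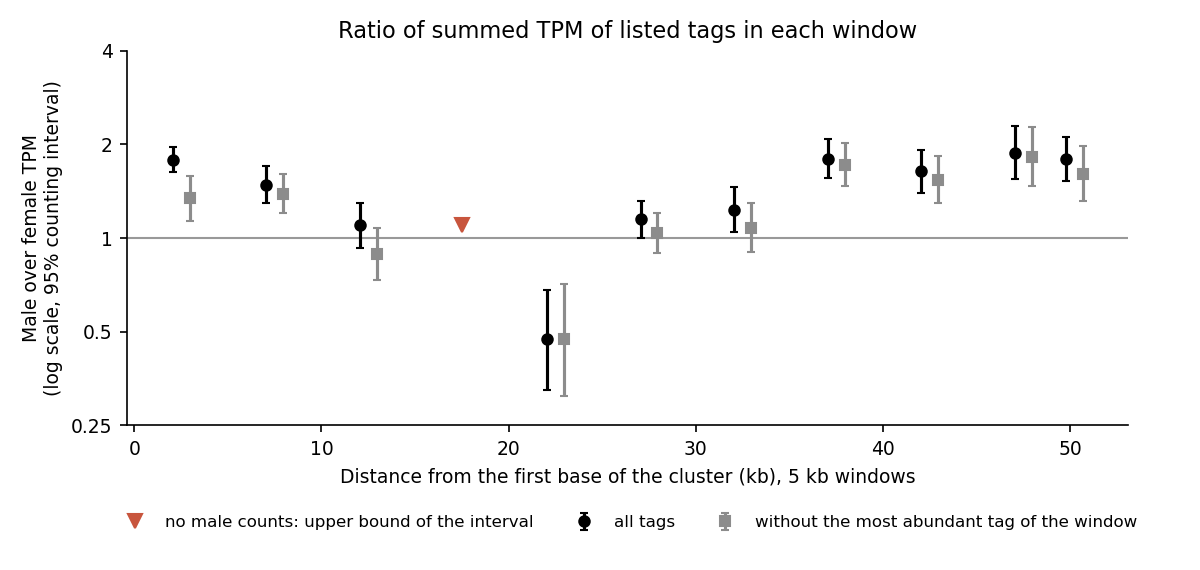
Ratio of summed male over female TPM (log axis, 95% counting interval) in each 5 kb window against the distance from the first base of the cluster, the last window being 454 bases long; circles are all tags, squares leave out the window's most abundant tag, and the triangle is the upper bound of a window with no male counts. With the totals used here, the ratio falls to 0.47 in the window from 20 to 25 kb and lies between 1.64 and 1.88 in the 4 windows from 35 kb on.

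Near the middle, females led in a stretch and in a window. Between 74526976 and 74529484, a stretch set off by gaps of over 1 kb, all 10 tags were higher in females. Over the list most tags were too, 15547 of 22773, and the difference was not tested. Their sums were 17 counts in males and 118 in females, and the stretch was 5.34-fold (3.20 to 9.48) higher in females. As the list holds only tags at least 2-fold apart, a sum over female-higher tags alone had to exceed 2-fold. Of the 10 tags, 6 were listed in females alone. The tag with most counts there, 27 nt from 74528049, had 5 counts in males and 23 in females. It was followed by the 27-nt tag starting at 74528108, with 6 counts in males and 20 in females. Then came 8566 bases with no listed tag. On the far side of this gap, the window from 20 to 25 kb had 42 counts in males and 115 in females and was 2.11-fold (1.47 to 3.08) higher in females. Its 15 tags, between 74538051 and 74539115, comprised 4 that were male-higher and 11 that were female-higher. Females thus had the larger number of tags here as well as the larger sum. The male-higher share, 26.7% (7.79 to 55.1), had an interval that held both the 31.7% of the list and an even split. The most abundant tag of the window, 27 nt from 74539089, had 8 counts in males and 22 in females, a female lead of 2.12-fold (0.91 to 5.50) within counting error of equal levels. The lead above the gap depended on how the cluster was cut. Split at gaps of over 1 kb instead, these 15 tags fell in a stretch of 125 tags, from 74538051 to 74551431. With the totals used here that stretch was male-led, at 1.18 (1.08 to 1.29). It was 1 of 6 male-led stretches among the 7. Another of the 6 was a single tag with 7 counts in males and 0 in females.

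The female-led stretch and window held 25 tags in all, 4 of them male-higher (16%, against 31.7% of the list) and 21 female-higher, 15 of these listed in females alone. No tag had more than 30 counts over both sexes. Their sum was 3.04-fold (2.28 to 4.12) higher in females. The other 290 tags had a ratio of 1.59 (1.52 to 1.67), with 153 higher in males. The pair was joined after its values were seen, so this contrast is a description. RLE factors lower every ratio, so with them the female lead of the pair could only grow, to 6.86-fold. The other 290 tags then turned to a female lead too, of 1.42-fold.

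**Figure D4:**
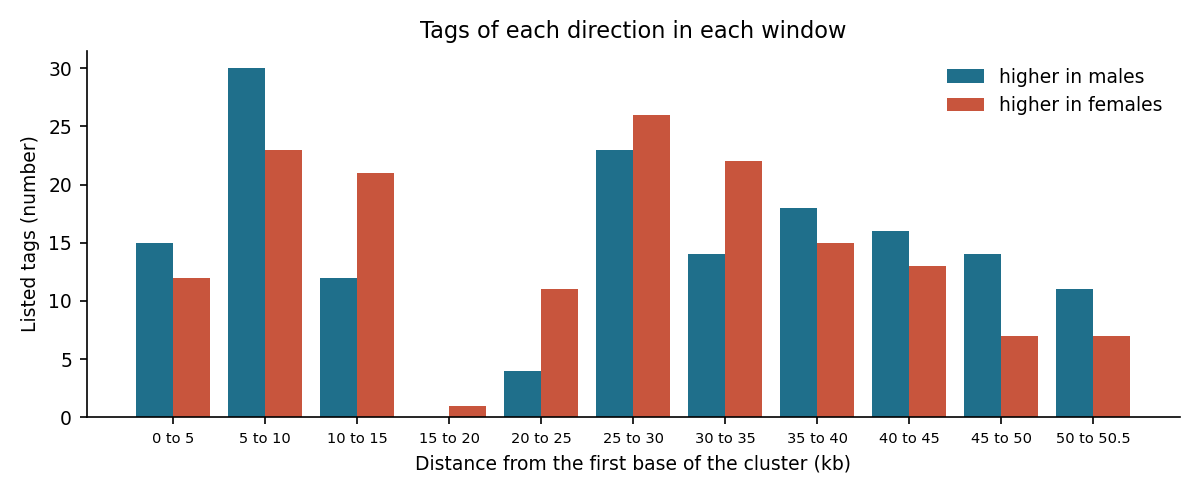
Number of tags higher in males (left bar of each pair) and higher in females (right bar) in each 5 kb window, by distance from the first base of the cluster; the last window is 454 bases long. Female-higher tags are the more numerous from 10 to 35 kb, with 12 male-higher against 21 female-higher tags at 10 to 15 kb and 4 against 11 at 20 to 25 kb. The male-higher shares there, 36.4% and 26.7%, lie within counting error of the 31.7% of the list and of an even split.

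At the finest scale the directions were interleaved. Overlapping tags merged the 315 tags to 192 loci, which covered 5995 bases or 11.9% of the cluster. Of these loci, 97 were higher in males and 95 in females, and 122 were single tags. Of the 70 loci of several tags, 21 held male-higher tags only, 15 female-higher tags only, and 34 held both. No value over the list is given for this split. Neighbouring loci had the same direction in 101 of 191 pairs, or 52.9%. Over all nuclear regions it was 4258 of 6540 pairs, or 65.1%, and the difference was not tested. The share of like neighbours also depends on how even the directions are. They were near even here, whereas 31.7% of the listed tags were male-higher. The loci with most tags were both mixed. At 74564411 to 74564482, 9 tags of 24 to 30 nt comprised 5 higher in males and 4 in females, with 127 counts in males and 113 in females. At 74525532 to 74525581, 9 tags of 24 to 29 nt comprised 4 higher in males and 5 in females, with 101 counts in males and 92 in females. At 74519481 to 74519521, by contrast, 4 of 5 tags were higher in males, and the 46 counts in males against 12 in females gave a ratio of 4.98 (2.60 to 10.3).

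Male counts leaned to short tags. Tags of 24 or 25 nt held 40.0% of the male counts and 31.1% of the female counts, a difference of 8.92 percentage points (6.75 to 11.1, by the normal approximation). The abundant 24-nt tag made up much of this, and without it the shares were 24.4% in males and 18.5% in females. Over the list they were 24.3% in males and 15.2% in females. Tags of 27 or 28 nt held 28.1% of the male counts and 39.3% of the female counts, against 39.9% and 50.0% over the list. Without the abundant tag they were 35.5% of the male and 46.5% of the female counts. The ratio of sums was accordingly 2.09 (1.91 to 2.30) for 24-nt tags, 1.0 (0.88 to 1.13) for 27-nt tags and 1.15 (1.03 to 1.27) for 28-nt tags. Over the list these ratios were 2.01, 0.85 and 0.87, so at 24 nt the cluster stood near the list. Tags of 26 nt, the commonest length among male-higher tags of the cluster, had a ratio of 1.87 (1.65 to 2.12), whereas over the list 26-nt tags stood at 1.08 (1.07 to 1.10).

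Counted once each, tags of 24 or 25 nt were 24.8% of the male-higher and 17.1% of the female-higher tags. The difference of 7.75 points (-1.20 to 16.7, by the normal approximation) was within counting error of equal shares. Tags of 27 or 28 nt were 35.0% and 51.9%. Over the list these shares were 23.7% and 15.9%, and 39.1% and 51.7%, so the cluster stood near the list in both. The lengths of male-higher tags averaged 26.9 ± 1.89 nt (SD over 157 tags) and those of female-higher tags 27.1 ± 1.52 nt (SD over 158 tags). Of the 6 tags of 31 or 32 nt, 5 were higher in males, with 59 counts in males and 18 in females over all 6. Over the list, 288 of the 575 tags of 31 to 33 nt were higher in males, and their ratio of sums was 1.35. The cluster held no tag of 33 nt.

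**Figure D5:**
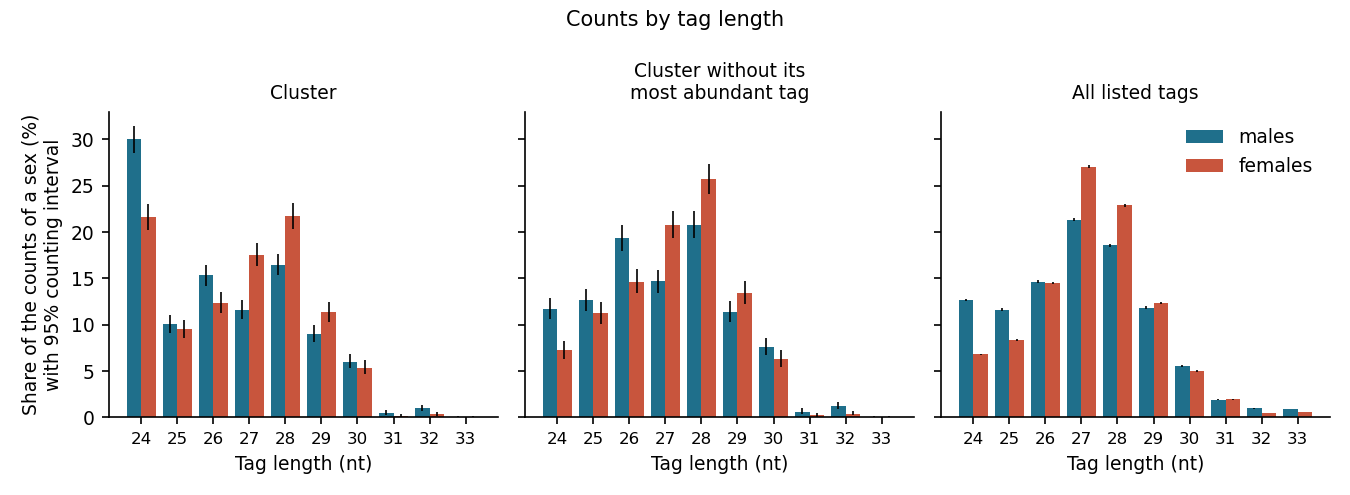
Share of the counts of each sex (%, bars with 95% counting intervals, males left of females) by tag length in nt, for the cluster, the cluster without its most abundant tag, and all listed tags. At 24 nt the male bar is the higher one in all 3 panels, at 11.7% against 7.27% for females without the abundant tag; at 27 and 28 nt the female bars are the higher ones in all 3 panels.

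Tags of 27 or 28 nt were 43.5% of the cluster and 47.7% of the list. In the female-led stretch from 74526976 to 74529484, 8 of 10 tags were 27 or 28 nt and 1 was 24 or 25 nt. In the window from 20 to 25 kb, 9 of 15 were 27 or 28 nt, close to the share of 10 of 18 in the male-led last 454 bases. From 35 to 40 kb, 10 of 33 tags were 24 or 25 nt, and the counts had a mean length of 25.4 nt in males and 25.9 nt in females. From 45 to 50 kb, 1 of 21 tags was that short, and the means were 27.7 nt in males and 28.1 nt in females. Over all windows, the mean length weighted by counts was 26.5 nt both in the windows with a ratio over 1 (299 tags) and in the others (16 tags). This likeness rested on the most abundant tag, without which the means were 27.1 and 26.5 nt, and with 2.5 kb windows the difference was -0.38 nt.

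Tags of the cluster shared their upper end far more often than their lower end. On 29 positions, 2 or 3 tags ended on the same base, 61 tags or 19.4% of the cluster. On 7 positions 2 tags started on the same base, 14 tags or 4.44%. Over the list the shares were close to each other, 11.9% for upper and 10.5% for lower ends. Of the 29 groups with a common upper end, 21 had all their tags on one side, 72.4%, against 86.4% of the 1171 such groups of the list. Among the 21, tags of 24 and 25 nt ending at 74550372 had 23 and 39 counts in males against 6 and 20 in females. Tags of 26 and 27 nt ending at 74554900 had 18 and 73 counts in males against 5 and 43 in females. Forms of 25, 26 and 28 nt ending at 74550205 were all higher in females, with 0, 0 and 4 counts in males against 8, 9 and 26 in females. In the other 8 groups the length forms differed in direction. An example lay at 74523447, where a 27-nt form had 8 counts in males and 0 in females and a 24-nt form 0 in males and 8 in females.

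The cluster did not stand out by the end overlaps that mark the ping-pong cycle, in which reciprocal cleavage leaves piRNAs whose 5′ ends overlap by 10 bases. Counted from positions alone, 4 pairs of tags had an upper end reaching 10 bases into another tag, against 4, 5, 8 and 2 pairs at 8, 9, 11 and 12 bases. All listed nuclear tags had 259 pairs at 10 bases, against 162, 185, 235 and 222. Tags set end to start with no base between them, the arrangement of phased piRNAs cut one after the other, numbered 8 pairs in the cluster, beside 7 pairs with 1 base between them and 6 with 1 base of overlap. Over all listed nuclear tags there were 366, 199 and 192. With so few pairs in the cluster, neither pattern could have been separated from counting error, and strand was not used.

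The 3 nuclear regions nearest to the cluster in number of tags differed from it in various ways. The region at NW_021837156.1 57184704 to 57269974 (283 tags) had a similar ratio of sums, 1.48 (1.44 to 1.53), but only 34.3% of its tags were higher in males. Without its most abundant tag its ratio was 1.01 (0.97 to 1.05), whereas that of the cluster on NW_021838798.1 was 1.42. The region at NW_021837998.1 371515 to 474486 (349 tags) had 37.5% of its tags higher in males and a ratio of 0.99 (0.94 to 1.04). That at NW_021837267.1 27236171 to 27243916 (268 tags) was 98.9% male-higher with a ratio of 8.0 (7.60 to 8.44). By shared ends, the cluster had 61 tags with a common upper end and 14 with a common lower one, while these regions had 47 and 80, 34 and 22, and 187 and 131. None of these differences was tested, as each region gave 1 value per sex.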

How the data were processed

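Small RNAs of whole bodies were sequenced, with 3 male and 3 female libraries, per the labels. Per the labels' protocols, TRIzol served to isolate RNA, and adaptors were joined to gel-cut small RNAs. The submitters' processing notes name Trimmomatic 0.30. The aligner, counter, genome build, list filter and way of pooling of libraries were not given in the sources used here. Whole-number counts per tag stand in 1 column per sex of the deposited table. The authors deposited TPM columns, which equalled count over a constant total to within 0.0001, with 0.01 written for a count of 0. The deposited log2 column equalled male over female TPM. Counts above 0 start at 2.

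Totals were recovered from TPM over count. Sums, shares and ratios have exact 95% intervals (Poisson, Clopper-Pearson, conditional). Only the conditional interval was tested on simulated data, as window sums of counts drawn without the 2-fold filter of the list. Reads are not independent molecules, so the intervals cover counting error only. Tests with edgeR need separate libraries and were not run. Named tags are the 5 with most counts per sex, up to 5 per direction with the largest fold (mean TPM of at least 10, both sexes), the 3 highest listed in 1 sex alone, and the top tag of each window; others were named after their values were seen, among them the 30-nt form at 74517945, tags of the stretch led by females and the shared-end examples. The members, windows and tag rules were chosen with earlier results of these data known. Alternatives were scalings by edgeR 4.0.16 in R 4.3.3, count and length filters, merging, other windows and omission of top tags. Analyses used Python 3.11.15 and scipy 1.17.1.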

Additional observations from a re-analysis of the deposited data

How the results depend on the processing

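No paired analysis was possible because the table has 1 column per sex, and no replicate could be left out; edgeR tests and overlaps by strand were likewise not run. The ratio of cluster sums (1.51) was 1.40 scaled to listed counts, 1.11 by TMM, 1.60 by upper quartiles and 0.67 by RLE factors. These shifted all ratios by -0.10, -0.44, 0.08 and -1.17 on the log2 scale and rest on a list without unchanged tags. It was 1.73 for tags of at least 20 counts, 1.34 without the 5 tags with most counts and 1.42 without the top one (chosen after seeing the data), and kept within its interval for 24 to 30 nt, other gaps and 1 tag per locus. The male-higher share was 64.0% at 20 or more counts, and otherwise 45.7% to 50.5%. Windows with a ratio over 1 (9 of 11, of which 7 had an interval above 1) were 14 of 19 at 2.5 kb, 6 with TMM and 0 with RLE factors. Window ratios that had separated from 1 turned with RLE factors to 0.79 (0 to 5 kb), 0.66, 0.55 (30 to 35 kb), 0.80, 0.73, 0.83 and 0.80, and at 30 to 35 kb to 0.91 with TMM. RLE factors also turned the tags starting at 74517922 (0.89), 74553841 (0.96), 74554874 (0.98), 74563816 (0.94) and 74564523 (0.96). These turns follow from the shift itself, which with RLE factors had to be 2-fold or more, as no listed tag is nearer to equal levels. The male excess at 24 or 25 nt (8.92 points) was 4.63 without the 5 top tags and 5.88 without the top one. The difference in mean length between windows with a ratio over 1 and the others (-0.04 nt) was 0.71 with each tag counted once, -0.38 at 2.5 kb and 0.54 without the top tag, so its direction depended on these choices; at 10 kb every ratio was over 1. Of the 186 tags listed in 1 sex, 1 had 20 or more counts. For 142 of them the interval excluded equal levels, and for 67 if a listed 0 was taken as 1. The 142 included all 72 listed in males alone. This was fixed by the list, as its smallest sum, 6 counts, set against 0 in females gave a lower bound of 1.53. The 10-base overlaps numbered 3 with each end counted once. Depth limits most single tags, whose median was 10 counts over both sexes.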
